A study of Mus musculus with 12 samples.

Results

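Brown and beige fat can produce heat without uncoupling protein 1 through cycles that spend ATP or move protons with no net product, and 10 genes of these cycles were followed here at the level of chromatin accessibility. They are Ckb, Ckmt1 and Ckmt2 (creatine kinases), Gatm (the first enzyme of creatine synthesis), Alpl (tissue-nonspecific alkaline phosphatase), Atp2a1 and Atp2a2 (the calcium pumps SERCA1 and SERCA2), Ryr1 and Ryr2 (ryanodine receptors) and Pm20d1 (an enzyme that makes N-acyl amino acids). Every ATAC-seq peak that the deposited tables assign to one of these symbols was taken, which gave 41 of 58558 peaks in brown fat and 25 of 39558 in inguinal fat, or 66 of 98116 in all. Atp2a1 had no peak in either table.

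The samples were 12 libraries of whole adipose tissue from C57BL/6 mice, 3 for each genotype in each depot. Flox mice carry floxed alleles of Smarcd1, which encodes the SWI/SNF subunit BAF60a, and AKO mice carry the same alleles with an Adiponectin-Cre transgene that inactivates BAF60a in adipocytes and not in the other cells of the tissue. Brown fat (BAT) was taken from 1 mouse per sample, and the sources used here do not give the age or housing temperature of these mice. Inguinal fat (iWAT) came from mice of 6 to 8 months kept at 10 °C for 7 days, and the tissue of 6 mice per genotype was pooled, minced and divided, so that its 3 samples per genotype are aliquots of 1 pool and p-values there measure the spread between aliquots only. A peak is a region where the transposase inserted adapters often, which marks open chromatin, and all values below are normalized reads, that is, reads in a peak divided by the size factor of the sample.

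In the creatine cycle, mitochondrial creatine kinase transfers a phosphate from ATP to creatine, phosphocreatine is then hydrolysed, and the ADP set free keeps respiration going. Alkaline phosphatase acts on phosphocreatine in mitochondria of thermogenic fat, and cytosolic CKB has also been placed in this cycle. In the calcium cycle, SERCA pumps calcium into the endoplasmic reticulum at the cost of ATP and ryanodine receptors let it out again. PM20D1 is secreted and joins fatty acids to amino acids, and the products act as uncouplers in mitochondria.

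Read depth in peaks was 27500738, 18049959 and 10115267 in flox brown fat and 12886038, 6336670 and 13821838 in AKO brown fat. In inguinal fat it ran from 4066720 to 6691161. At Smarcd1 itself, the brown fat peak in the body of the gene held 136, 201 and 185 normalized reads in the flox samples and 23.7, 57.9 and 26.9 in the AKO samples, while its other peak lay within overlapping ranges. In inguinal fat Smarcd1 had 1 peak, at the start of the gene, with 249, 188 and 211 normalized reads in the flox samples and 233, 229.5 and 229.9 in the AKO samples, which does not check the deletion. In brown fat, all 8 adipocyte marker genes had peaks, whose sum ran from 24300 to 30420 in flox and from 17080 to 22100 in AKO. Without Ucp1, which is one of these genes, the ranges overlapped narrowly, at 19210 to 22600 in flox and 14500 to 19240 in AKO. In inguinal fat the sums over all 8 genes were 2996 to 3872 and 3276 to 3580. Of 16 skeletal muscle markers, 8 had peaks in brown fat, with sums of 3794 to 4518 in flox and 4171 to 4666 in AKO, and 8 had peaks in inguinal fat, with sums of 1490 to 1721 and 1494 to 1574. Myod1, Myf6, Actn3 and Tnnt3 of this list had no peak in either table, while Myog, Myf5, Acta1 and Mb had peaks in both. Endothelial markers had sums of 766 to 855 in flox and 671 to 739.9 in AKO inguinal fat, and lymphocyte markers sums of 190.3 to 196 and 137 to 171. Both sums were lower in every AKO sample there, but not all their peaks were. Of 12 endothelial peaks, 9 had negative and 3 positive log2 fold changes (50.1% and 49.9% of all peaks). The lymphocyte sum rested on 3 peaks of 2 genes. Every AKO sample lay below every flox sample at 2 of these 3 and above at 1 (10.3% and 10.6% of all peaks). The ranges of the endothelial and lymphocyte sums in brown fat, and of smooth muscle and macrophage sums in both depots, overlapped. The part of these marker differences in the results below was not tested. In whole tissue, fewer nuclei of one cell type and less open chromatin per nucleus cannot be told apart.

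Sequences of the peaks on which the comparisons turn are given first. Each of the first 5 lines is the central 300 bases of a peak on the plus strand of GRCm38 (mm10), and capitals mark the motif matches that were found there. The Ryr2, Ckmt2 and Atp2a2 windows are shown because these brown fat peaks had the smallest p-values of their genes, the Ckb window because it had the smallest p-value of the inguinal peaks, and the Alpl window because it was the most accessible of all member peaks per kilobase.
Ryr2 intron 1, chr13:12071515-12071814: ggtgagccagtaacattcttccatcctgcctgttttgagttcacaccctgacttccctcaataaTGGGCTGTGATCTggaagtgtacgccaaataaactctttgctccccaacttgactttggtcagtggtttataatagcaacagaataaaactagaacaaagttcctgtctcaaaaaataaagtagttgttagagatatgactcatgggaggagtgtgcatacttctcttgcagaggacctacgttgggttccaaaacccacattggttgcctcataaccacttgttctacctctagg
Ckmt2 upstream, chr13:91918770-91919069: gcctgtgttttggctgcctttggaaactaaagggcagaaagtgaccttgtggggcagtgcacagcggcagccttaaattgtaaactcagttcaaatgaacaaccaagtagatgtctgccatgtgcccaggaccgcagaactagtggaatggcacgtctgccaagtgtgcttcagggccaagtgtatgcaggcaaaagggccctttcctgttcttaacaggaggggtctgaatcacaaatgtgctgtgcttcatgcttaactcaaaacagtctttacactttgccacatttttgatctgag
Atp2a2 upstream, chr5:122509240-122509539: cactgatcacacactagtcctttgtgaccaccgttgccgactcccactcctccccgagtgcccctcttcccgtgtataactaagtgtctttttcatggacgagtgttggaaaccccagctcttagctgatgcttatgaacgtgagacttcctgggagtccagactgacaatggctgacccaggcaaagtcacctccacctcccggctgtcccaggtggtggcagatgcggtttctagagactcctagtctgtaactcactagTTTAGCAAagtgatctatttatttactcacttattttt
Ckb downstream, chr12:111648431-111648730: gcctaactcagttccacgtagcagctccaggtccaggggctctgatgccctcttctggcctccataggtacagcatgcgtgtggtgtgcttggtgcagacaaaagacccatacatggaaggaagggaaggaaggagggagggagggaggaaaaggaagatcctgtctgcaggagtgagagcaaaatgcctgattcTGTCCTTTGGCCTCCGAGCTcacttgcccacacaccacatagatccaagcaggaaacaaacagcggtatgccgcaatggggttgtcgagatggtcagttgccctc
Alpl intron 1, chr4:137783803-137784102: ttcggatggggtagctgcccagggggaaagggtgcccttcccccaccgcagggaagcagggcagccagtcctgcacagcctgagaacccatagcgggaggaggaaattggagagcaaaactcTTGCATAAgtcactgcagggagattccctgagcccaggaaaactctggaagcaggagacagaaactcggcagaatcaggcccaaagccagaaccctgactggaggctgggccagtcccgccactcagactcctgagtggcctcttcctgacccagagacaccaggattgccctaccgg

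The next lines are RefSeq promoter sequence (GRCm38.p6), read 5′ to 3′ on the minus strand, on which both genes lie, up to the base before the annotated start of the gene. They are shown because Ckb and Gatm each had a peak over the start site, and that of Gatm was the member peak that was higher in every AKO sample of brown fat with an unadjusted p below 0.05.
Ckb promoter, chr12:111672339-111672588: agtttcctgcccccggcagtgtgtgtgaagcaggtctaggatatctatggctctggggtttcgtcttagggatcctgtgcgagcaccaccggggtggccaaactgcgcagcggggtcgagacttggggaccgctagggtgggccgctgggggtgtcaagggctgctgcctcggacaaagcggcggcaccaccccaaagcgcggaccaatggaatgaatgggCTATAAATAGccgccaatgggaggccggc
Gatm promoter, chr2:122611304-122611527: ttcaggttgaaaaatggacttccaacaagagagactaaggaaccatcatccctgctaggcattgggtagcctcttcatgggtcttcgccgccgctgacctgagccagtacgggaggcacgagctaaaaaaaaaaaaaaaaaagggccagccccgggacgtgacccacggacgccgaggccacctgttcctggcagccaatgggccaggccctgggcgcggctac
The RefSeq promoter table held 8 of the 10 genes. Atp2a2 and Pm20d1 were not among them.

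Consensus motifs of 6 adipose or muscle factors were searched on both strands in the central 300 bases of all peaks. The PPAR direct repeat, a pair of AGGTCA letters with 1 base between them and up to 3 mismatches, was found in 9 of 41 brown fat member peaks (22%), against 32.3% of all brown fat peaks. In inguinal fat it was found in 6 of 25 (24%), against 28.5% of all. The C/EBP consensus TTGCNNAA was present in 7 brown fat member peaks (17.1%) and 15.1% of all peaks, and in 4 inguinal ones (16%) and 14% of all.

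The Ryr2 window holds 1 match to the PPAR repeat, and the Ckb window holds a pair of overlapping matches, which share bases of the stretch in capitals. The Atp2a2 and Alpl windows each hold a C/EBP match, and the Ckmt2 window holds none of the 6 motifs. The EBF consensus, TCCC and GGGA with 2 bases between them, occurred in 3 brown fat member peaks (2.4% of all peaks) and in none of the inguinal ones (1.69% of all). The NF1 consensus, TTGGC and GCCAA with 5 bases between them and up to 2 mismatches, occurred in 5 brown fat and 4 inguinal member peaks (18.1% and 16.6% of all). The ERR half-site TCAAGGTCA occurred in no member peak (0.874% and 0.417% of all). The MEF2 consensus was found only in the Ckb start-site peak of each table (0.693% and 0.473% of all), at chr12:111672358-111672367, where the match CTATAAATAG also holds the letters TATAAA. A match describes the letters only, and binding was not measured.

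How the accessibility of these genes differed between genotypes was asked peak by peak. In brown fat, limma called 0 of the 41 member peaks at an adjusted p below 0.1, and it called 0% of all 58558 peaks. The smallest adjusted p among members was 0.436, and 0.269 among all peaks. The peak in the body of Smarcd1, with a log2 fold change of -2.98, had this limma value of 0.269. Its adjusted p was 0.00169 in edgeR and 4.04e-11 in DESeq2. limma thus did not call the targeted gene either, and the absence of a limma call does not show that a peak was unchanged. At an unadjusted p below 0.05, 4 member peaks were lower in AKO (9.76%, against 5.59% of all peaks) and 1 was higher (2.44%, against 3.46%). The first count was 6 without AKO replicate 1 and 1 without AKO replicate 3. The second was 0 without AKO replicate 2, AKO replicate 3, flox replicate 1 or flox replicate 3, and 0 in edgeR and DESeq2. The share of all peaks below this p was not counted in these other fits. Their member counts therefore cannot be set against a background.

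In 8 brown fat member peaks every AKO sample lay below every flox sample (19.5%, against 8.84% of all peaks). Of these 8, 4 were peaks assigned to Ckmt2 that lie in introns of Rasgrf2. In 3 member peaks every AKO sample lay above (7.32%, against 8.77%). The log2 fold change was negative at 26 of 41 member peaks (63.4%, against 49.1% of all) and positive at 15 (36.6%, against 50.9%), with a median of -0.11 against 0.0067. This balance depended on the first principal component of all peaks (PC1), which was a covariate in the brown fat model. Without it, 19 member peaks were negative and 22 positive, with a median of 0.0096. The PC1 scores were -98.2, -41.8 and 14.6 in flox and -0.617, 112 and 13.5 in AKO. The sample with the most reads in peaks had the lowest score and the sample with the fewest had the highest. How far PC1 holds read depth or genotype was not tested. edgeR on the recovered reads called 1 member peak lower (0.114% of all peaks) and 0 higher (0.029% of all). DESeq2 also called 1 lower (0.298% of all) and 0 higher (0.11% of all) among the 32 member peaks with an adjusted p. Both called the peak in intron 1 of Ryr2.

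In inguinal fat, limma called 0 of 25 member peaks (0% of all), with a smallest adjusted p of 0.173. At an unadjusted p below 0.05, 2 member peaks were lower (8%, against 7.42% of all) and 0 were higher (0%, against 7.61%). Groups did not overlap in 1 peak with AKO below (4%, against 10.3%) and in 3 with AKO above (12%, against 10.6%). The log2 fold change was positive at 16 of 25 (64%, against 49.9% of all) and negative at 9 (36%, against 50.1%), with a median of 0.10. Without AKO replicate 3 the split was 13 to 12 with a median of 0.029, without flox replicate 1 it was 14 to 11 with a median of 0.037, and without flox replicate 2 it was 15 to 10 with a median of 0.048. edgeR called 1 lower, a distal Ckb peak (2.52% of all), and 0 higher (2.15% of all). DESeq2 called 0 lower (0.63% of all) and 0 higher (0.546% of all).

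**Figure D1:**
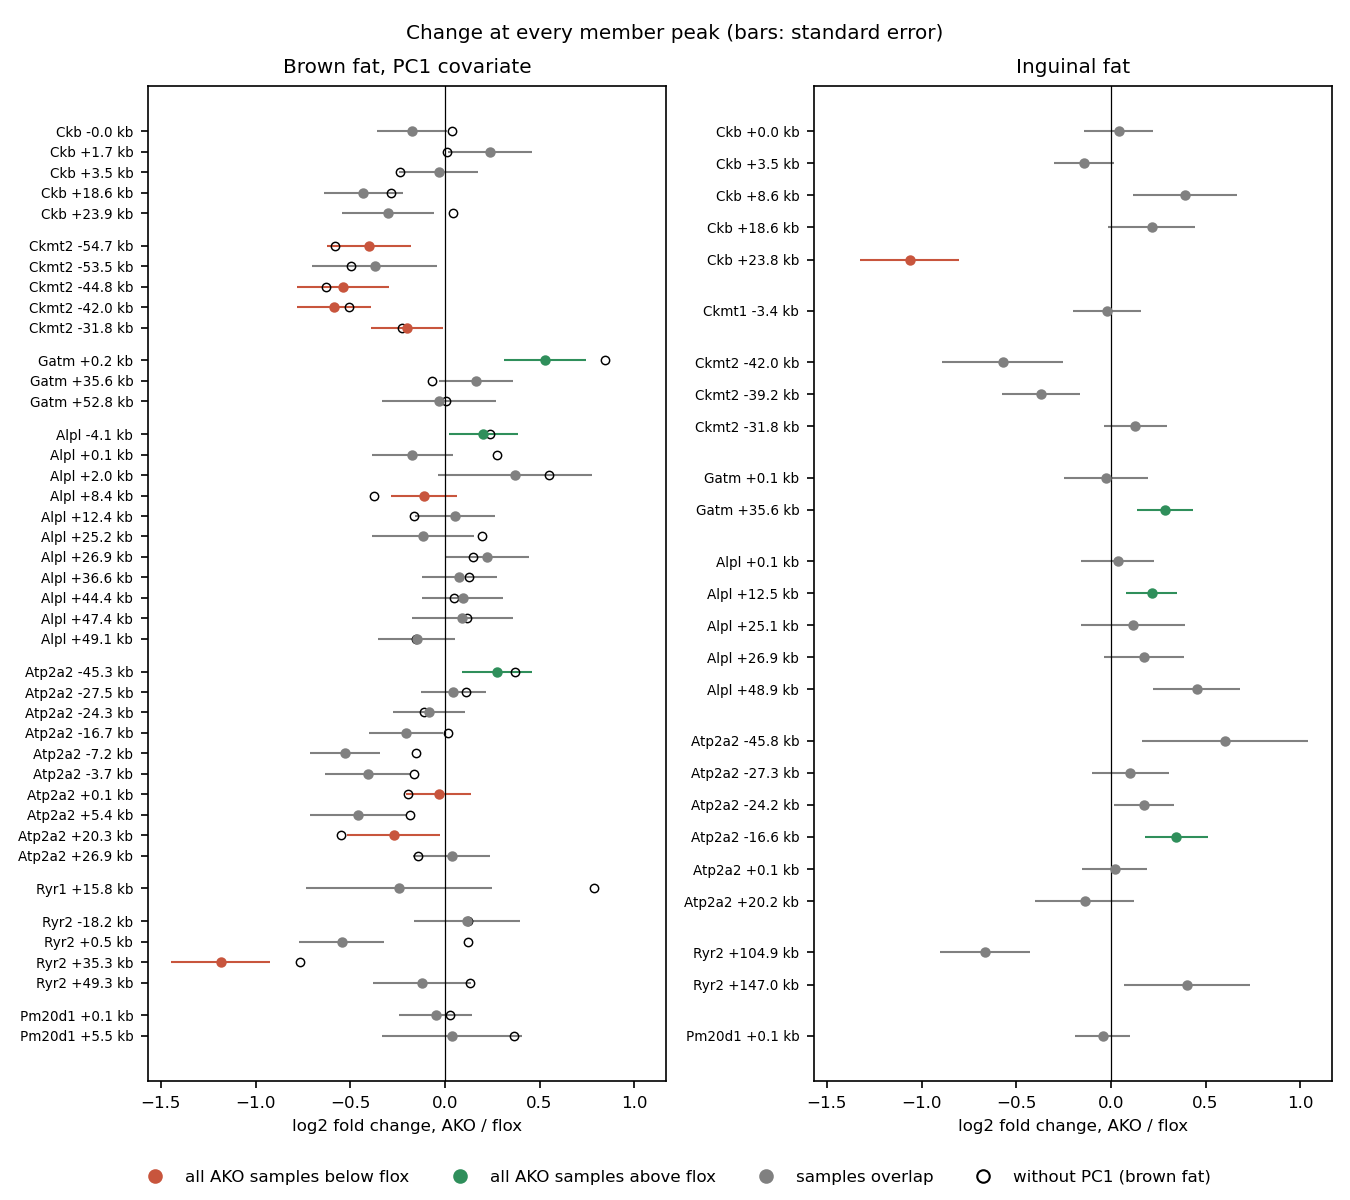
Log2 fold change of AKO over flox (horizontal axis) with its standard error for the 41 brown fat and 25 inguinal member peaks, each named by gene and distance of its midpoint from the start site, with filled points coloured by whether the 3 samples of each genotype overlap and open points for the brown fat values without PC1. The Ryr2 peak in brown fat and the Ckb peak 23758 bp from its start in inguinal fat lie farthest to the left, and at several peaks, such as that over the Ryr2 start site, the open and filled points lie on opposite sides of 0.

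The ryanodine receptors release calcium from the endoplasmic reticulum, with RYR1 best known from skeletal muscle and RYR2 from heart. With PC1 in the fit, the largest difference among the brown fat member peaks was in Ryr2, at chr13:12070761-12072567 in intron 1, with the midpoint 35281 bp inside the gene. In flox mice this peak held 443, 543 and 790 normalized reads, and in AKO mice 372, 402 and 258. All AKO samples lay below all flox samples, although flox replicate 1 and AKO replicate 2 were close to each other. The log2 fold change was -1.18 (SE 0.26, unadjusted p = 0.00266, limma adjusted p = 0.436). edgeR gave -1.17 with an adjusted p of 0.0193 and DESeq2 gave an adjusted p of 0.000406. Without flox replicate 3, which was the highest sample, the edgeR log2 fold change was -0.89 with an adjusted p of 0.478. Without PC1 it was -0.77 in limma, and adjusted p-values were 0.363 in limma, 0.285 in edgeR and 0.1003 in DESeq2, above the threshold in each, and the start-site peak of Gatm (0.85) and the Ryr1 peak (0.79) then differed by more.

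The start-site peak of Ryr2 did not share this pattern. It held 169, 180.3 and 342 normalized reads in flox and 199, 339.9 and 199 in AKO, so that 1 sample of each genotype stood high and the groups overlapped. Its log2 fold change was -0.55 (SE 0.22, unadjusted p = 0.0445, limma adjusted p = 0.546), and it changed sign to 0.12 without PC1. The other Ryr2 peaks in brown fat, 49349 bp inside the gene and 18181 bp upstream, had log2 fold changes of -0.12 and 0.12 with overlapping samples.

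In inguinal fat the Ryr2 start site had no peak, and the table held other sites farther into intron 1. The peak 104885 bp inside the gene held 46.3, 31.1 and 53.4 normalized reads in flox and 21.9, 33.1 and 25.7 in AKO, and 1 sample of each genotype crossed over. Its log2 fold change was -0.66 (SE 0.24, unadjusted p = 0.0257, limma adjusted p = 0.264). The peak at 147004 bp had a log2 fold change of 0.40 with overlapping samples. None of the 4 brown fat and 2 inguinal Ryr2 peaks overlapped a peak of the other table.

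Ryr1 had 1 peak assigned to it, in brown fat only, of 86 bp in exon 13. It held 5.23, 14.8 and 19.4 normalized reads in flox and 24.7, 36.7 and 9.59 in AKO, and such low counts carry a large relative error. It differed by -0.24 on the log2 scale (SE 0.49, unadjusted p = 0.636, limma adjusted p = 0.903), and 0.79 without PC1. The start site of Ryr1 had no peak in either table. Of 5 brown fat peaks that touch the body of Ryr1, 4 were assigned to Map4k1 or Mir1963. The 1 inguinal peak that touches it was assigned to Map4k1.

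SERCA2, the product of Atp2a2, is the calcium pump of most tissues, and SERCA1, the product of Atp2a1, is that of fast skeletal muscle. Nearest to the Atp2a1 start was a peak assigned to Sh2b1, with its midpoint 11983 bp upstream in brown fat and 11934 bp upstream in inguinal fat. Atp2a2 had 10 brown fat and 6 inguinal peaks and was one of the most accessible members: its start-site peak, chr5:122501351-122502878, held 992, 933 and 878 normalized reads in flox brown fat and 870.1, 732 and 853 in AKO. Every AKO sample lay below every flox sample, but the difference was small once PC1 was in the fit, with a log2 fold change of -0.03 (SE 0.17, unadjusted p = 0.849, limma adjusted p = 0.967), and -0.19 without PC1. In inguinal fat the same site held 453, 376 and 505 in flox and 382, 472 and 498 in AKO, which overlapped, with a log2 fold change of 0.02 (SE 0.17).

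The Atp2a2 peak with the smallest p in brown fat lay 7164 bp upstream of the start, at chr5:122508823-122509955. It held 172, 228 and 278 normalized reads in flox and 184, 232 and 185 in AKO, with overlapping groups. AKO differed from flox by -0.53 on the log2 scale (SE 0.19, unadjusted p = 0.0245, limma adjusted p = 0.509) with PC1 and -0.15 without. Peaks 3666 bp upstream and 5449 bp inside the gene had values of -0.41 and -0.46 in the same fit and -0.16 and -0.18 without PC1.

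In the same gene, an intron 5 peak at 20270 bp was lower in every brown fat AKO sample (log2 fold change -0.27) and the peak 45313 bp upstream was higher in every one (0.28). In inguinal fat, the peak 16635 bp upstream of Atp2a2 held 112, 108 and 112 normalized reads in flox and 115, 143 and 169 in AKO. Every AKO sample was above every flox sample, by 0.34 on the log2 scale (SE 0.17, unadjusted p = 0.0746, limma adjusted p = 0.383). The overlapping brown fat peak had -0.20 with overlapping groups. In inguinal fat 5 of the 6 Atp2a2 peaks had positive log2 fold changes, up to 0.60 at a peak of 8.55 to 31.1 normalized reads.

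**Figure D2:**
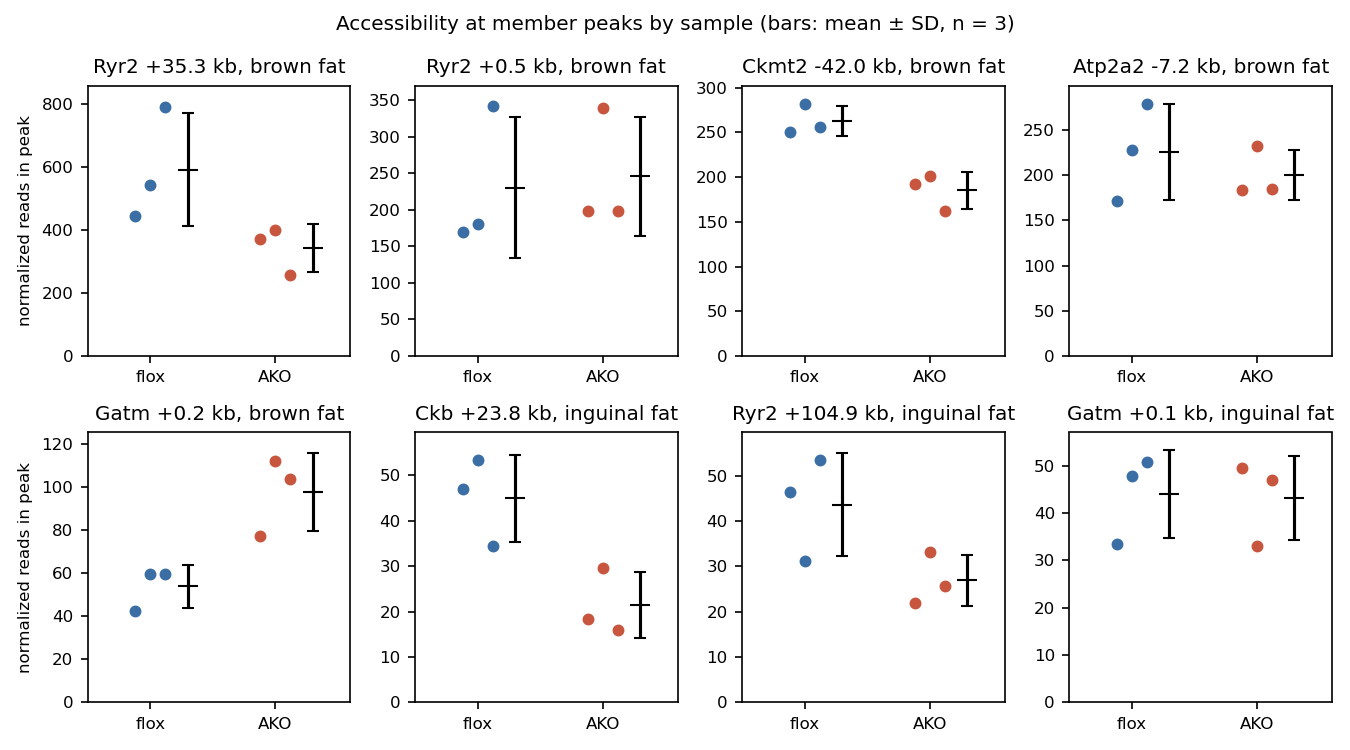
Normalized reads per peak (vertical axis, from 0) in each flox and AKO sample at 8 member peaks, with the mean and SD of the 3 samples beside the points. The Ryr2 intron 1, Ckmt2 and Gatm peaks in brown fat and the Ckb peak in inguinal fat show no overlap between genotypes, while at the Ryr2 and Gatm (inguinal) start sites, the Atp2a2 site and the inguinal Ryr2 site the samples are mixed.

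Among the creatine kinases, CKB is the cytosolic brain-type enzyme, and CKMT1 and CKMT2 are the mitochondrial enzymes, of which CKMT2 is the sarcomeric form. The Ckb start-site peak, chr12:111672186-111672499 in brown fat, held 95.1, 110.1 and 123 normalized reads in flox and 113, 124 and 98.8 in AKO. The samples overlapped, and the log2 fold change was -0.17 (SE 0.18, unadjusted p = 0.375, limma adjusted p = 0.803) with PC1 and 0.04 without. In inguinal fat it held 57.7, 88.9 and 65.4 in flox and 76.1, 66.2 and 72.7 in AKO, with a log2 fold change of 0.04 (SE 0.18).

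The most accessible Ckb peak per kilobase lay beyond the end of the gene, 3505 bp from its start. It held 483, 547 and 379 normalized reads in flox brown fat, against 403, 357 and 424 in AKO, with overlapping samples and a log2 fold change of -0.03. A peak in intron 5 had 0.24. Neither set of samples separated by genotype.

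In inguinal fat the Ckb peak at chr12:111648399-111648761, 23758 bp from the start and beyond the end of the gene, held 47.0, 53.4 and 34.4 normalized reads in flox and 18.4, 29.7 and 16.0 in AKO. All AKO samples were below all flox samples. This is a log2 fold change of -1.06 (SE 0.26, unadjusted p = 0.00414, limma adjusted p = 0.173). edgeR gave an adjusted p of 0.05 and DESeq2 one of 0.154. The edgeR adjusted p was above 0.1 without AKO replicate 1 (0.174), AKO replicate 3 (0.186), flox replicate 1 (0.211) or flox replicate 2 (0.102), and below it without AKO replicate 2 (0.0483) or flox replicate 3 (0.0558).

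This Ckb peak lies in an intron of the neighbouring gene Mark3, a kinase gene, as does the member peak at 18645 bp. The overlapping brown fat peak held 32.4, 39.2 and 36.2 normalized reads in flox and 26.8, 50.2 and 37.4 in AKO, and its samples overlapped (log2 fold change -0.30, SE 0.24, and 0.04 without PC1). The brown fat peak with the smallest p for Ckb was the one at 18644 bp. It held 62.7, 75.4 and 62.1 in flox and 48.5, 63.7 and 51.8 in AKO, which overlapped narrowly, with a log2 fold change of -0.43 (SE 0.21, unadjusted p = 0.0769, limma adjusted p = 0.593). In inguinal fat that site had 0.22.

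Ckmt2 had 5 brown fat peaks, and all 5 had negative log2 fold changes, from -0.58 to -0.20 (49.1% of all peaks were negative). In 4 of them every AKO sample lay below every flox sample (8.84% of all peaks). None of the 5 lay near the start of Ckmt2: they were 31760 to 54683 bp upstream, in introns of Rasgrf2, which encodes a guanine nucleotide exchange factor, and no peak lay within 1000 bp of the Ckmt2 start in either table. Peaks assigned to Rasgrf2 itself had negative values at 9 of 11 sites in brown fat (median -0.36), and the genotypes were apart at 3 of the 11, with AKO below at 2 and above at 1 (8.84% and 8.77% of all peaks).

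The Ckmt2 peak with the smallest p, chr13:91918647-91919192, held 250.3, 282 and 256.1 normalized reads in flox and 193, 201 and 162 in AKO. The genotypes were apart, and the log2 fold change was -0.58 (SE 0.19, unadjusted p = 0.0199, limma adjusted p = 0.499), or -0.51 without PC1, where the adjusted p was 0.365. The nearest peak to the start, chr13:91908270-91909020, held 178, 146 and 172 in flox and 142, 139 and 140.1 in AKO, again apart but by less, with -0.20 (SE 0.19, unadjusted p = 0.326, limma adjusted p = 0.778). The remaining separated peaks had log2 fold changes of -0.54 and -0.40.

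In inguinal fat Ckmt2 had 3 peaks with overlapping samples in each. The site 42044 bp upstream, which overlaps the brown fat peak just described, held 47.8, 36.7 and 56.8 normalized reads in flox and 51.9, 24.0 and 23.5 in AKO. AKO replicate 1 stood with the flox samples, and the log2 fold change was -0.57 (SE 0.32, unadjusted p = 0.116, limma adjusted p = 0.447). The peak with the smallest p, at 39211 bp, held 32.8, 55.6 and 45.6 in flox and 35.7, 35.4 and 29.9 in AKO, with -0.37 (SE 0.21, unadjusted p = 0.115, limma adjusted p = 0.445). The site nearest the start had 0.13.

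Ckmt1 had no brown fat peak and 1 inguinal peak, which lies over the start site of the neighbouring gene Ppip5k1, 3351 bp from the Ckmt1 start. It held 292, 288 and 299.5 normalized reads in flox and 232, 359.6 and 289.8 in AKO, which overlapped, with a log2 fold change of -0.02 (SE 0.18, unadjusted p = 0.911, limma adjusted p = 0.969). The brown fat table has a peak at the same place that it assigns to Ppip5k1, with 0.16 (SE 0.18). No value here therefore describes the Ckmt1 start itself.

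Gatm encodes arginine:glycine amidinotransferase, which makes the precursor of creatine. Its start-site peak in brown fat, chr2:122610851-122611372, was among the least accessible peaks of the table, at the 5.1 percentile of flox reads per kilobase. It held 42.3, 59.9 and 59.5 normalized reads in flox and 77.3, 112 and 104 in AKO. Every AKO sample lay above every flox sample. The log2 fold change was 0.53 (SE 0.22, unadjusted p = 0.0447, limma adjusted p = 0.546), and 0.85 without PC1, where the adjusted p was 0.336. In limma it ran from 0.36 to 0.70 as each sample was left out in turn.

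The same site in inguinal fat held 33.5, 47.8 and 50.8 normalized reads in flox and 49.6, 33.1 and 47.0 in AKO. The samples were mixed, with a log2 fold change of -0.02 (SE 0.22, unadjusted p = 0.915, limma adjusted p = 0.970). Of the other Gatm peaks, the one 35626 bp from the start, beyond the end of the gene, held 39.2, 52.3 and 45.6 in flox inguinal fat, against 53.0, 58.2 and 55.6 in AKO. There the AKO samples were all higher, by 0.29 on the log2 scale (SE 0.15, unadjusted p = 0.0929, limma adjusted p = 0.413). In brown fat this site had 0.16 with overlapping samples.

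The alkaline phosphatase gene Alpl had 11 peaks in brown fat and 5 in inguinal fat, and none had an unadjusted p below 0.05. Distances are counted here from its principal GENCODE start, while the brown fat table counts 6 of its peaks from another start farther into the gene. Its start-site peak, chr4:137795980-137796604, held 105.03, 106 and 151 normalized reads in flox brown fat, against 108, 191 and 146 in AKO. The samples overlapped, with a log2 fold change of -0.17 (SE 0.21, unadjusted p = 0.446, limma adjusted p = 0.833) and of 0.28 without PC1. In inguinal fat it held 37.8, 41.1 and 43.9 in flox and 45.0, 32.0 and 51.3 in AKO, with 0.04 (SE 0.19).

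The strongest site of Alpl was the intron 1 peak at chr4:137783525-137784380, 12432 bp inside the gene, at the 98.2 percentile of flox reads per kilobase in brown fat. It held 898, 831 and 842 normalized reads in flox and 777, 614 and 934 in AKO. AKO ranged widely around the flox values, and the log2 fold change was 0.05 (SE 0.21, unadjusted p = 0.803, limma adjusted p = 0.956), or -0.17 without PC1. In inguinal fat the same site held 205, 199 and 211 in flox and 267, 224 and 226 in AKO, so that every AKO sample was higher, by 0.22 on the log2 scale (SE 0.13, unadjusted p = 0.150, limma adjusted p = 0.495).

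The Alpl peak with the smallest p in brown fat lay 4143 bp upstream. It held 166, 154 and 164 normalized reads in flox and 173, 197 and 202 in AKO, with all AKO samples higher by 0.20 (SE 0.18, unadjusted p = 0.306, limma adjusted p = 0.771). An intron 1 peak 8374 bp inside the gene was lower in every AKO sample, with -0.11 in the fit and -0.37 without PC1. In inguinal fat all 5 Alpl peaks had positive log2 fold changes, from 0.04 to 0.45, the highest of them in intron 8, at 36.4, 35.6 and 27.5 in flox and 35.7, 62.8 and 41.7 in AKO, which overlapped (SE 0.23, unadjusted p = 0.0868, limma adjusted p = 0.405).

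The Pm20d1 start-site peak, chr1:131797173-131797851, held 322, 321 and 321 normalized reads in flox brown fat, against 284, 349.6 and 352 in AKO, with flox inside the AKO range. The log2 fold change was -0.05 (SE 0.19, unadjusted p = 0.810, limma adjusted p = 0.958), and 0.03 without PC1. In inguinal fat it held 71.3, 92.3 and 80.9 in flox and 72.6, 82.2 and 81.3 in AKO, with -0.04 (SE 0.15, unadjusted p = 0.773, limma adjusted p = 0.916). The other brown fat peak, over exon 6, held 86.7, 172 and 135 in flox and 196, 191 and 115.1 in AKO. Its samples overlapped, with a log2 fold change of 0.04 (SE 0.37) with PC1 and 0.36 without.

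**Figure D3:**
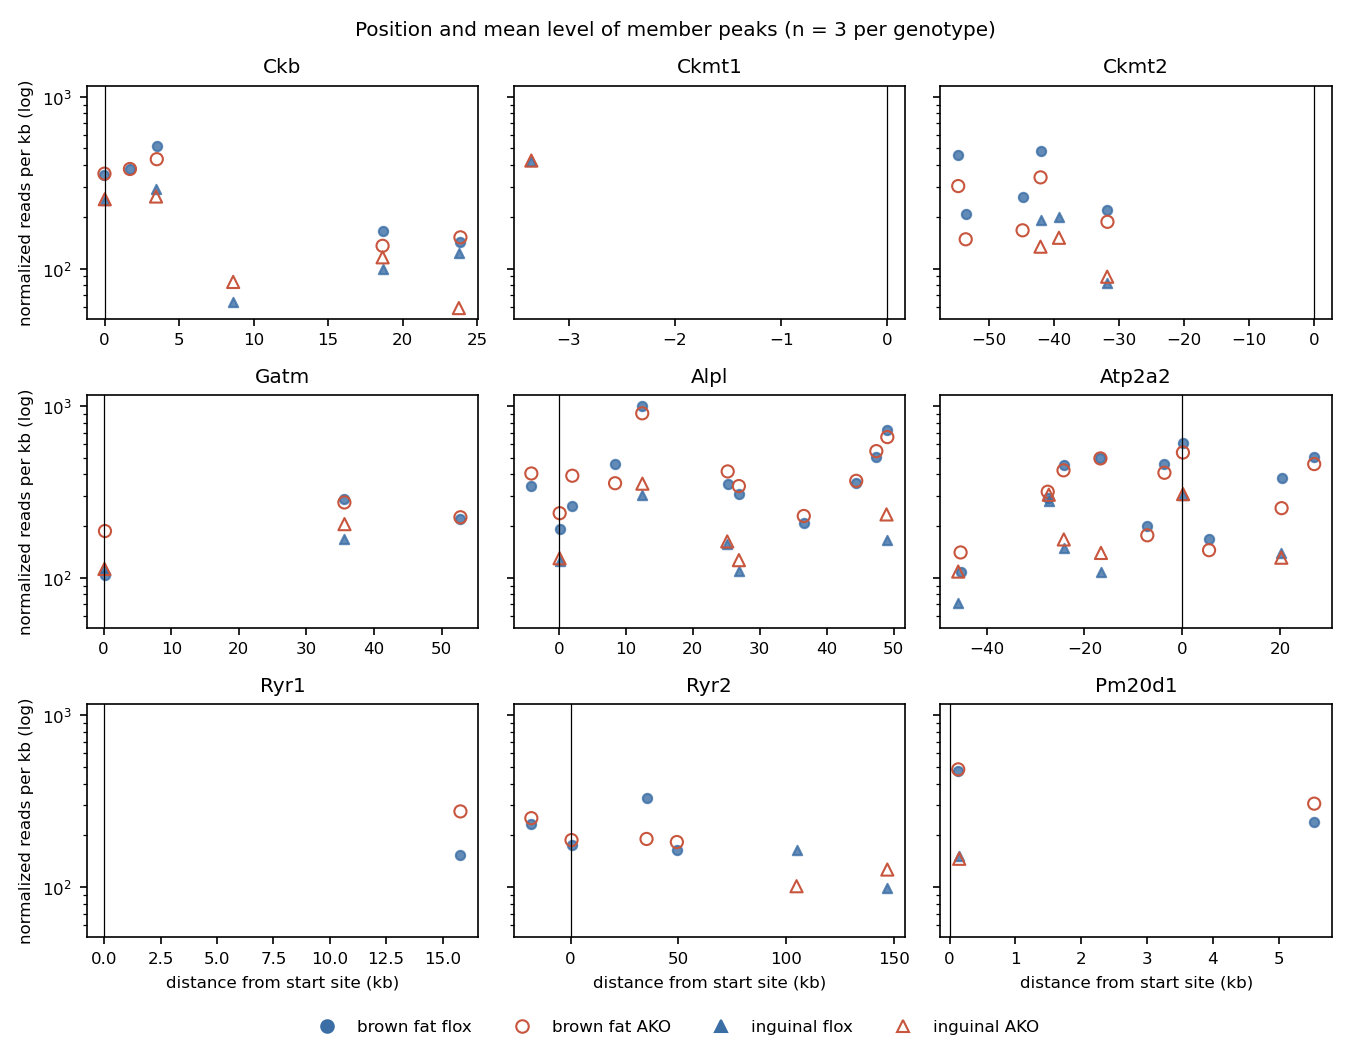
Distance of each member peak from the start site of its gene (horizontal axis, kb, negative upstream) and mean normalized reads per kb (vertical axis, log scale) in flox (filled) and AKO (open) samples, n = 3 per genotype, for brown fat (circles) and inguinal fat (triangles), whose tables were normalized separately. The Alpl peak 12432 bp inside the gene reaches 1001 normalized reads per kb in flox brown fat, and the Ckmt2 peaks all lie 31760 bp or more upstream.

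Most inguinal member peaks were also brown fat peaks: 21 of 25 (84%) overlapped a brown fat peak by at least 1 base, against 80.5% of all inguinal peaks. Of the brown fat member peaks, 20 of 41 (48.8%) overlapped an inguinal one, against 53.8% of all brown fat peaks. In 20 overlapping pairs both peaks were assigned to the same member. The log2 fold changes were negative in both depots at 5 pairs, positive in both at 5, negative in brown fat and positive in inguinal fat at 9, and the reverse at 1. Over all 31593 overlapping pairs assigned to the same gene, these shares were 20.9%, 32.5%, 19.8% and 26.8%. The signs in brown fat depended on PC1: without it, the 20 member pairs were split into 3, 7, 7 and 3. The shares over all pairs were then 27.1%, 24.3%, 28% and 20.6%.

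No member pair was separated by genotype in both depots (3.74% of all pairs), and 10 of 20 were separated in one of them (50%, against 30.8% of all pairs). Since the tables were normalized separately, and the inguinal samples are aliquots of pooled tissue from cold-acclimated mice, the difference between depots was not tested. The pairs with the largest gaps were Ckb at 23758 bp (-0.30 in brown fat and -1.06 in inguinal fat), Ckb at 18645 bp (-0.43 and 0.22), Alpl in intron 8 (-0.15 and 0.45), the Gatm start site (0.53 and -0.02) and the Atp2a2 site 16635 bp upstream (-0.20 and 0.34).

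**Figure D4:**
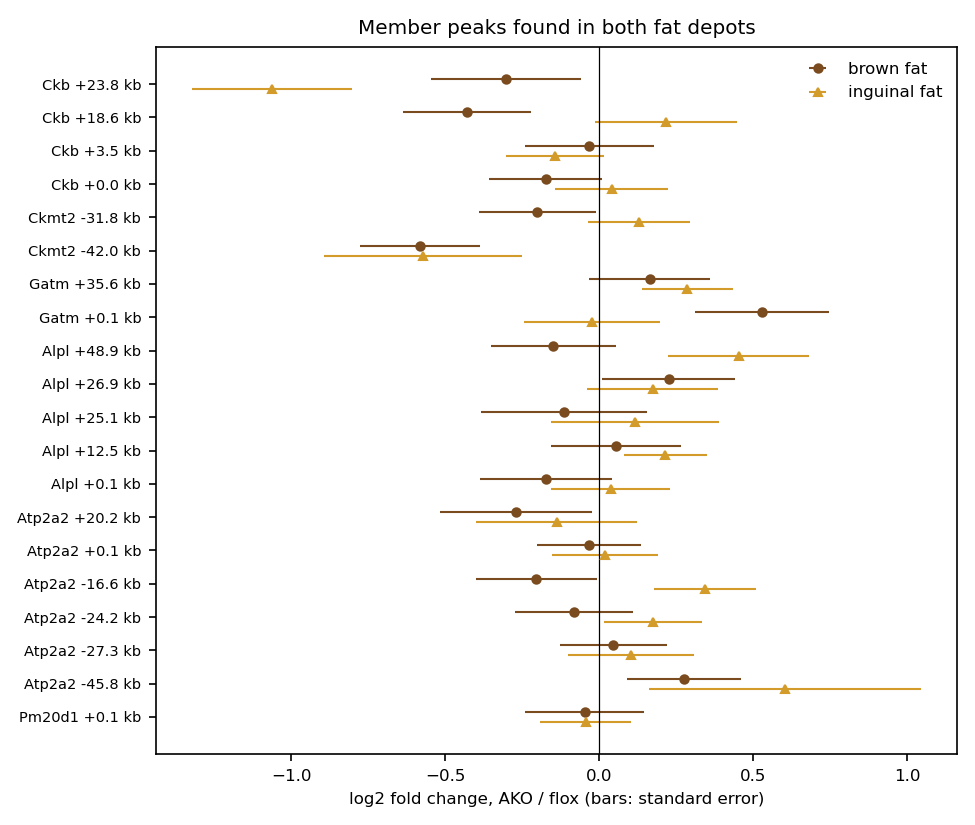
Log2 fold change of AKO over flox with its standard error (horizontal axis) at the 20 pairs of member peaks that overlap between the tables, in brown fat (circles) and inguinal fat (triangles), named by gene and distance from the start site in the inguinal table. With PC1 in the fit, brown fat values lie below 0 at 14 of the pairs (70%, against 40.7% of all pairs). Without PC1 they do so at 10 (50%, against 55% of all pairs). Inguinal values lie above 0 at 14.

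Other genes of these pathways were taken as lists. Of 5 further creatine cycle genes, 2 had peaks, 6 in brown fat and 3 in inguinal fat, and limma called 0 of them, with 0 at an unadjusted p below 0.05 and 0 called by edgeR. Slc6a8, the creatine transporter, and Slc25a5 lie on the X chromosome, whose reads were removed. Slc25a4, an ADP/ATP carrier, had the smallest p in both depots. In brown fat its peak held 39.2, 56.9 and 49.2 normalized reads in flox and 61.8, 77.3 and 74.8 in AKO, all AKO samples being above, with 0.36 (SE 0.22, unadjusted p = 0.144, limma adjusted p = 0.663).

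Of 18 further calcium cycle genes, 15 had 108 peaks in brown fat and 14 had 54 in inguinal fat, and limma called 0. Sln and Trdn, which encode sarcolipin and triadin, had none in either table. At an unadjusted p below 0.05, 2 of 108 were lower and 7 higher in brown fat (5.59% and 3.46% of all peaks), and 7 of 54 lower and 4 higher in inguinal fat (7.42% and 7.61% of all). edgeR called 0 in brown fat and 3 lower and 2 higher in inguinal fat (2.52% and 2.15% of all). Itpr2, an inositol trisphosphate receptor gene and so a calcium channel of the endoplasmic reticulum, had the smallest p in brown fat. This peak held 99.8, 91.6 and 89.3 normalized reads in flox and 203, 141 and 143 in AKO, with every AKO sample above, by 0.96 on the log2 scale (SE 0.22, unadjusted p = 0.00317, limma adjusted p = 0.436, edgeR adjusted p = 0.191, DESeq2 adjusted p = 0.163). In inguinal fat it was Atp2b1, a plasma membrane calcium pump, with 34.2, 30.02 and 42.2 in flox and 16.1, 12.6 and 20.3 in AKO, all lower, by -1.08 (SE 0.21, limma adjusted p = 0.151, edgeR adjusted p = 0.0705).

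Of 9 genes related to Pm20d1 and Alpl, all had peaks, 33 in brown fat and 19 in inguinal fat, and limma called 0. At an unadjusted p below 0.05, 4 of 33 were lower and 1 higher in brown fat (5.59% and 3.46% of all peaks), and 2 of 19 lower and 1 higher in inguinal fat (7.42% and 7.61% of all). edgeR called 1 lower in inguinal fat (2.52% of all) and 0 in brown fat. Phospho1, a phosphatase that acts on phosphocholine, had the smallest p there. It held 228, 278 and 156 normalized reads in flox and 87.6, 129 and 83.5 in AKO, all AKO samples lower, with -1.19 (SE 0.35, unadjusted p = 0.0117, limma adjusted p = 0.476, edgeR adjusted p = 0.191, DESeq2 adjusted p = 0.0595). In inguinal fat Enpp1, which makes pyrophosphate, held 42.8, 44.5 and 35.3 in flox and 29.97, 7.99 and 19.2 in AKO, all lower, with -1.23 (SE 0.41, unadjusted p = 0.0186, limma adjusted p = 0.237, edgeR adjusted p = 0.0639, DESeq2 adjusted p = 0.198).

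For scale, the Ucp1 peak with the smallest p in brown fat held 1629, 1143 and 952 normalized reads in flox and 312, 332 and 227 in AKO. The AKO samples were far below, with a log2 fold change of -1.93 (SE 0.32, limma adjusted p = 0.417, edgeR adjusted p = 0.00196). In the same fit the member peaks ran from -1.18 to 0.53.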

How the data were processed

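Paired-end ATAC-seq reads of 38 bp from 12 samples (inguinal reads were cut to this length, per the paper's methods) were mapped to mm10 with BWA, filtered for duplicates, mapping quality of at least 30 and autosomes, and broad peaks were called with MACS2 per sample and kept when called in 2 of 3 replicates of a genotype, all by the authors. The deposited tables give signal values, which the authors obtained from read counts with a size factor for each sample and which gave back whole reads in 100% of values (tolerance 0.0001). Columns of the authors' own DESeq2 comparison (fold changes, p-values, base means) were not used, and 0 columns of per-sample values were left out. The labels name the inguinal table, and the other table was taken as that of brown fat, whose model alone had the PC1 covariate. Each table was tested on its own.

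Peak starts in the tables count from 0 and were raised by 1 (GRCm38, GENCODE M21). AKO was tested against flox with limma 3.58.1 (R 4.3.3) on log2(normalized reads + 1) over all peaks of a table, with PC1 of all peaks as covariate in brown fat, Benjamini-Hochberg adjustment and a threshold of 0.1. Fold changes on this scale are understated for low peaks. With 3 against 3 samples, an exact test of 1 peak could not go below 0.1. edgeR 4.0.16 and DESeq2 1.42.0 on recovered reads, other scalings, pseudocounts and left-out samples were alternatives. The scripts were tested on simulated data without a PC1 covariate, so the brown fat model was not covered. No minimum of recovered changes was required of limma there. Members, gene lists and motifs were chosen with earlier results of these data known. Named peaks were, per gene and table, the peak nearest the start and that with the smallest p, besides separated peaks with an unadjusted p below 0.05. Nuclei per reaction are given as different numbers in the paper and the labels. Python 3.11.15, numpy 2.4.6, pandas 2.3.3 and matplotlib 3.10.9 were used. Replicate numbers were not used to pair the samples in the main fits.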

Additional observations from a re-analysis of the deposited data

How the results depend on the processing

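The filter on a mean of at least 50 normalized reads left 37 of 41 brown fat and 15 of 25 inguinal member peaks, without the distal Ckb peak. limma called 0 member peaks in both depots with pseudocounts of 0.1 and 10, total reads in peaks, TMM, a mean of at least 50, a threshold of 0.05, each sample left out, and the PC1 choices tried. Over all peaks these limma fits also called 0, except with a mean of at least 50 in inguinal fat (134 lower and 180 higher). A further exception was a pseudocount of 10 in brown fat (1 lower). edgeR called 1 member peak in each depot and DESeq2 called 1 in brown fat. As each sample was left out, edgeR (chosen after seeing the data) called 0 to 1 member peaks in either depot. In brown fat it called 0 without flox replicate 3, where 7 of all peaks were called lower and 0 higher. Without AKO replicate 3 it called 1, with 163 of all peaks lower and 388 higher. In inguinal fat it called the distal Ckb peak without AKO replicate 2 (429 of all peaks lower and 309 higher) or flox replicate 3 (457 and 443). It called the Ryr2 peak at 104885 bp without flox replicate 2 (adjusted p = 0.0778), where 1686 of all peaks were lower and 1362 higher. Without PC1, edgeR and DESeq2 called 0 member peaks in brown fat. Of all peaks, edgeR then called 7 lower and 1 higher, and DESeq2 303 lower and 300 higher. Overlap of at least 50% of both peaks left 15 of 25 inguinal member peaks shared, against 21 with 1 base.

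Replicate numbers were not used to pair the samples in the main fits. Deviations of same-numbered samples correlated at 0.494, 0.063 and -0.236 in brown fat and at -0.039, -0.050 and -0.057 in inguinal fat. The 0.494 of replicate 1 was the highest among the brown fat combinations of a flox and an AKO sample. Flox replicate 3 and AKO replicate 2, which differ in number, were close to it at 0.481. These few values cannot settle whether same-numbered samples belong together. With the replicate block limma called 0 in both depots, and the Pm20d1 start site in brown fat had 0.060 on the log2 scale.

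Signs that turned were at peaks with no call, and the cause was not tested. Without PC1 in limma, edgeR and DESeq2, log2 fold changes in brown fat were 0.035, 0.040 and 0.034 at the Ckb start site, 0.28, 0.30 and 0.29 at that of Alpl, 0.79, 0.87 and 0.86 at the Ryr1 peak, 0.12, 0.10 and 0.094 at the Ryr2 start site, and 0.025, 0.037 and 0.029 at that of Pm20d1. In inguinal fat PC1 separated the genotypes and cannot be told apart from them. As a covariate there, it turned the sign to -1.33 at the Ckb start site, -0.89 at the Gatm peak at 35626 bp and 0.044 at the Ckmt1 peak, where edgeR gave 0.0024 and DESeq2 0.0019. Leaving out single samples in limma or edgeR gave log2 fold changes of -0.31 to 0.035 (Alpl start site), -1.14 to 0.40 (Ryr1) and -0.16 to 0.14 (Pm20d1) in brown fat. In inguinal fat they ran from -0.098 to 0.22 (Ckb start site), -0.18 to 0.14 (Ckmt1), -0.020 to 0.25 (Ckmt2 at 31802 bp), -0.21 to 0.15 (Gatm start site), -0.11 to 0.24 (Alpl), -0.097 to 0.13 (Atp2a2) and -0.14 to 0.051 (Pm20d1).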
